A study of Mus musculus with 2 samples.

Results

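The genes described are 9 of the 20198 genes in the deposited table: the complement components *C1qa*, *C1ra*, *C1s1*, *C4b*, *C3* and *Cfb*, the soluble regulator *Serping1*, and the membrane regulators *Cd55* and *Cd59a*. They were chosen by name, as genes that start, carry forward or restrain complement. Complement is a set of plasma and tissue proteins that tag surfaces for uptake and attract leukocytes. The classical pathway starts with C1q and the proteases C1r and C1s, of which C1s cleaves C4. The classical pathway meets the alternative pathway, which needs factor B (*Cfb*), at C3. C1 inhibitor (*Serping1*) blocks C1r and C1s, CD55 speeds the decay of the enzymes that cleave C3, and CD59 blocks the pore that ends the cascade.

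The study sequenced RNA of single cells from whole corneas of male mice, with droplets and molecular identifiers (UMIs). It had 2 libraries, 1 per condition: unwounded corneas (UW) and corneas collected 24 h after the central epithelium was scraped off inside a trephine mark (W). Each library pooled the corneas of 4 mice, and epithelium and the remaining tissue were dissociated separately and then combined. The UW library held 16450 cells and 367166822 UMIs, with a median of 22014 UMIs per cell. The W library held 12417 cells and 289586482 UMIs, with a median of 20290 UMIs per cell.

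The comparison asks in which cells of the cornea each gene is transcribed, and how its level in W differs from UW within the same cluster of cells. With 1 library per condition there are no replicates, so wounding cannot be told apart from any other difference between the 2 pools of mice, and no difference was tested. Levels are UMIs summed over the cells of a deposited cluster in each library, scaled to counts per 1000000 UMIs of that sum (CPM), with exact Poisson 95% intervals. Those intervals, and the Clopper-Pearson 95% intervals of cell shares, cover counting error only. A gene was called higher or lower in W when both sums together held at least 20 UMIs and the levels differed at least 2 times.

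The deposited table places the cells in 17 clusters, numbered from 0 to 17 with 12 not in use. Clusters 1 to 9 and 11 had a summed 7647 to 67425 CPM of 9 epithelial keratin, adhesion and *Pax6* transcripts in UW, against 2554 and 2996 CPM in clusters 0 and 10. These 10 clusters are called epithelial here, although cluster 14 of W, at 15306 CPM, was level with cluster 7 of W, at 15272 CPM, the lowest of the 10 in both libraries. Cluster 5 is kept by number. *Krt4* and *Krt19* were among its leading genes, but the 5 conjunctival list genes were highest in cluster 5 in UW, at 10603 CPM, and in cluster 6 in W, at 14469 CPM. Clusters 6 and 7 were superficial-like (*Psca* in cluster 6, *Lce3a* in cluster 7), and cluster 8 was mitotic-like (*Top2a*, *Mki67*).

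Cluster 0 was stroma-like, led by *Kera*, with all 8 stromal list genes detected at a summed 75282 CPM in UW and 39203 CPM in W. Cluster 10 had 72773 and 47742 CPM of the same list and is kept by number, because its leading genes included *Penk* and *Myoc*, named after their values were seen and in no marker list, and *Col8a1* of the corneal endothelium list. That list summed to 1203 CPM in cluster 10 and 394 CPM in cluster 0 of UW. Cluster 13 was neutrophil-like, with 36148 CPM of 8 neutrophil genes in W. Cluster 15 was mononuclear phagocyte-like, with 26540 CPM of 9 phagocyte genes, of which *Lyz2* gave 18605 CPM. Cluster 14 had 9896 CPM of the phagocyte list and 4456 CPM of a dendritic cell list and is kept by number. Cluster 16 was T-like, with 3837 CPM of 8 T or cytotoxic lymphocyte genes in W, but it also had 763 CPM of 3 mast cell genes. Cluster 17, with 29 cells, was left unnamed. Clusters 13 to 17 held 15 cells in UW and 1559 cells in W, so their levels are given for W and no ratio was taken there.

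Over the 12 clusters with at least 50 cells in each library, 85 of the 108 pairs of a member and a cluster had the minimum count. Of these 85 pairs, 39 were called higher in W (12.7% of all genes' pairs were) and 9 were called lower (9.80% of all genes' pairs were). Of the 39, 32 were among the 68 such pairs of the epithelial clusters, 4 among the 9 of cluster 0 and 3 among the 8 of cluster 10. Of those 32, 17 belonged to *Serping1*, *C1s1* and *C1ra* and 8 to *C1qa*, and these 4 genes were at least 50 times lower in epithelial clusters of W than in their highest cluster of W. The minimum count also lets in a gene through W alone, as it did for *Cfb*, so these counts describe the members and do not set them apart from other genes.

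In cluster 0, all 9 members had the minimum count, 4 were called higher (7.34% of all genes were) and 1 was called lower (9.67% were). In cluster 10, 8 members had it, 3 were called higher (4.97% of all genes were) and 2 were called lower (6.63% were). The median log2 ratio of the members was 0.02 in cluster 0, against -0.16 over all genes, and 0.10 in cluster 10, against -0.09 over all genes. These medians are over 8 and 7 members, without *Cfb*, which has no ratio, and single members went both ways. Scaling by composition factors (TMM or median-of-ratios size factors) raised every ratio in cluster 0 by 0.14 or 0.17 log2, and in clusters 8, 9 and 10 by 0.10 to 0.13. The same factors lowered every ratio by 0.13 in cluster 1, by 0.16 in cluster 6, and by 0.38 or 0.41 in cluster 7.

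In the epithelial clusters the number of members called higher was 4 in each of clusters 1 to 6 and 11. The shares of all genes called higher there were 14.7% in cluster 1, 13.2% in cluster 2, 15.1% in cluster 3, 13.8% in cluster 4, 12.7% in cluster 5, 17.2% in cluster 6 and 12.7% in cluster 11. It was 3 in cluster 7 (23.2% of all genes), 1 in cluster 9 (9.12%) and 0 in cluster 8 (10.8%). Members called lower numbered 1 in cluster 1 (11.0% of all genes), 1 in cluster 3 (11.1%), 1 in cluster 5 (7.47%), 1 in cluster 9 (9.76%) and 2 in cluster 11 (9.33%). None was called lower in cluster 2 (13.1% of all genes), cluster 4 (13.5%), cluster 6 (9.58%), cluster 7 (6.48%) or cluster 8 (9.58%).

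**Figure D1:**
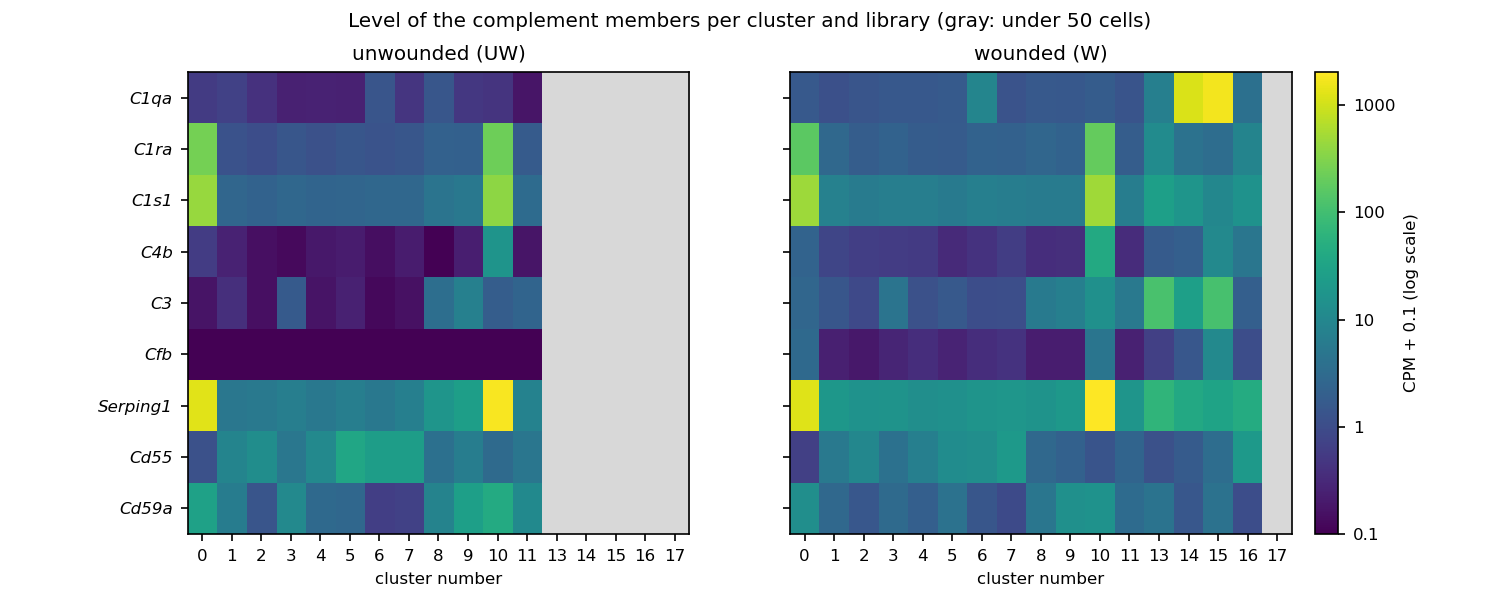
Level of each member (CPM, colour on a log scale) in each deposited cluster, with 1 panel per library and 0.1 CPM added so that 0 can be drawn. Clusters with under 50 cells are gray. *Serping1*, *C1s1* and *C1ra* are highest in clusters 0 and 10, *C1qa* in clusters 14 and 15 of W, and *Cd55* in epithelial clusters 5, 6 and 7 of UW.

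In W *C1qa* lay mostly in clusters 14 and 15. Its level was 1740 CPM in cluster 15 (95% interval 1690 to 1790) and 1145 CPM in cluster 14 (1111 to 1180), and these clusters held 94.2% of the *C1qa* UMIs of the W library. In cluster 14 *C1qa*, *C1qb* and *C1qc* were among the 10 genes that most set the cluster apart, so its level there is a description of the cluster. In UW 87.7% of the *C1qa* UMIs were in epithelial clusters and 3.91% in clusters 14 and 15. Few cells held them: 1 cell had 31 of the 56 UMIs of cluster 6, and 1 had 15 of the 17 of cluster 8. Over the whole library *C1qa* went from 179 UMIs in UW to 9489 UMIs in W, beside 7 captured cells of clusters 14 and 15 in UW and 605 in W.

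Not every cell of these clusters carried C1q. In cluster 15, 133 of 251 cells (53.0%, interval 46.6 to 59.3) had a *C1qa* UMI at a median of 10144 UMIs per cell, and 44.2% did when each cell was thinned to 2000 UMIs. In cluster 14, 141 of 354 cells (39.8%, interval 34.7 to 45.1) had one at a median of 8724 UMIs, and 30.4% did after thinning. T-like cluster 16, which should lack the gene, had 1.86% of its cells with a *C1qa* UMI at a median of 4411 UMIs.

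The C1q genes split the cells of these clusters. In cluster 14, 122 cells had UMIs of *C1qa*, *C1qb* and *C1qc* together, and 180 had none of the 3. In cluster 15 the numbers were 124 and 89. The summed count of the 3 genes was 10 or more in 110 cells of cluster 14 and in 132 cells of cluster 15, and lay from 1 to 9 in 64 and 30 cells.

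Within cluster 15, cells with and without a *C1qa* UMI had like levels of *C3*, at 116 and 114 CPM. The properdin gene *Cfp* stood at 437 and 445 CPM in the same cells. *Apoe*, named after its values were seen, differed, at 5494 CPM with *C1qa* and 1861 CPM without. *C4b* had 28 of its 29 UMIs in cells with *C1qa*, but the 29 UMIs came from 14 cells, with up to 7 in 1 cell. *Vsig4*, a receptor for C3 fragments named after its values were seen, had 18 UMIs in cells with *C1qa* and 0 in cells without.

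In cluster 14 genes of the dendritic cell list went both ways between these cells. The 3 given here and *Apoe* were named after their values were seen, and the other 3 of the list were not split. *Flt3* had 0 UMIs in the 141 cells with *C1qa*, which allows up to 2.23 CPM at 3 UMIs, and stood at 33.7 CPM (26.7 to 42.0) in the 213 cells without. *Ccr7* stood at 70.7 CPM with *C1qa* and 140 CPM without, and *H2-Aa* at 5503 and 3482 CPM. *Apoe* stood at 5470 CPM with *C1qa* and at 622 CPM without, while *Lyz2* stood at 6714 and 5481 CPM.

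In the epithelial clusters of W *C1qa* ranged from 1.04 to 9.07 CPM, a median of 0.0822% of its level in cluster 15. The medians of *Lyz2*, *Cd74* and *Fcer1g* were 0.0771%, 0.100% and 0.119% of their own highest clusters. Those of *Tyrobp* and *Csf1r* were 0.146% and 0.163%. The highest epithelial *C1qa* level, in cluster 6, rested on 1 cell, which held 87 of the 135 UMIs. The share of epithelial cells with a *C1qa* UMI was 0.489% in UW and 3.54% in W, at median depths of 23669 and 25553 UMIs. In cluster 6 of W *C1qa* had 0.521% of its level in cluster 15, above the 0.370% that *Cd74*, *Csf1r*, *Tyrobp*, *Fcer1g* and *Lyz2* reached at most. In the other 7 epithelial clusters with a call it had 0.0674% to 0.0890%, and *Lyz2* had 0.0570% to 0.0842% in the same 7. The other markers had wider ranges there: *Cd74* 0.0706% to 0.217%, *Fcer1g* 0.0758% to 0.239%, *Tyrobp* 0.0633% to 0.370% and *Csf1r* 0.111% to 0.230%.

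*C1ra* and *C1s1*, the protease genes of the first component, were transcribed in clusters 0 and 10. *C1ra* stood at 261 CPM in UW and 166 CPM in W in cluster 0 (log2 -0.65), and at 232 and 197 CPM in cluster 10 (log2 -0.24). *C1s1* stood at 442 and 484 CPM in cluster 0 (log2 0.13), and at 381 and 490 CPM in cluster 10 (log2 0.36). Neither gene was called in cluster 0 or 10, and their ratios had opposite signs in both clusters under each scaling.

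Clusters 0 and 10 held 95.5% of the *C1ra* UMIs and 94.4% of the *C1s1* UMIs in UW, and 91.8% and 91.2% in W. In the same clusters 88.8% of UW cells and 90.6% of W cells had a *C1ra* UMI, at median depths of 11424.5 and 15934 UMIs, against 2.96% and 5.56% of epithelial cells. Thinned to 5000 UMIs the share went the other way, from 70.1% to 55.0% in cluster 0 and from 65.6% to 60.5% in cluster 10.

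*C4b* was concentrated in cluster 10, which held 69.8% of its UMIs in UW and 62.3% in W. Its level there rose from 17.0 CPM (13.8 to 20.7) to 41.0 CPM (36.8 to 45.6), 2.41 times (1.92 to 3.06). The share of cluster 10 cells with a *C4b* UMI went from 6.02% in UW (4.20 to 8.31) to 12.8% in W (10.3 to 15.7), or 4.20% and 8.71% after thinning to 5000 UMIs. Of the UMIs, 66.0% in UW and 48.1% in W came from 10 cells. When each cell was given the same weight, the log2 ratio fell from 1.27 to 0.49 and the gene was no longer called. The cause was not tested.

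In cluster 0 *C4b* went from 14 to 72 UMIs, or from 0.492 to 2.22 CPM, 4.51 times (2.52 to 8.66). Cluster 15 of W had 10.7 CPM (7.17 to 15.4). No epithelial cluster had the minimum count of *C4b*, and 0.207% of epithelial cells in UW and 0.929% in W had a UMI.

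*C3* was low in every cluster of UW with at least 50 cells, and its UMIs lay mostly in epithelium. Of its 224 UMIs in UW, 94.2% were in epithelial clusters. Among these, the highest UW level was 7.48 CPM (5.67 to 9.70) in cluster 9, followed by 3.52 CPM in cluster 8, 2.31 CPM in cluster 11 and 1.53 CPM in cluster 3, while the other 6 epithelial clusters had at most 0.285 CPM. Stroma-like cluster 0 had 2 UMIs, or 0.0703 CPM.

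In W the library held 1666 *C3* UMIs, with 48.9% in epithelial clusters and 38.8% in clusters 13 to 17. The level was 116 CPM (101 to 133) in neutrophil-like cluster 13 and 115 CPM (103 to 129) in phagocyte-like cluster 15. In cluster 13 157 of 710 cells (22.1%, 19.1 to 25.3) had a *C3* UMI at a median of 2509.5 UMIs, and in cluster 15 147 of 251 cells (58.6%, 52.2 to 64.7) did at 10144 UMIs. Thinned to 2000 UMIs the shares were 21.1% and 23.5%, so at equal depth the shares were alike. T-like cluster 16 had 0.930% at a median of 4411 UMIs.

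*C3* was higher in W in clusters 0 and 10. In cluster 0 it went from 2 to 84 UMIs, a ratio of 36.8 with a counting interval of 9.88 to 309. In cluster 10 it went from 10 to 120 UMIs, or from 1.75 to 14.4 CPM, 8.24 times (4.33 to 17.6), with 61.7% of the W UMIs in 10 cells. The shares of cells with a UMI stayed low in W, at 3.90% (3.03 to 4.92) in cluster 0 and 7.12% (5.24 to 9.41) in cluster 10, or 0.878% and 4.03% after thinning to 5000 UMIs. The share of cluster 0 cells after thinning was within the 0.178% to 3.47% seen in epithelial clusters of W. The upper end of that range is cluster 9, which had the highest epithelial *C3* level of W, so the range is not a measure of free RNA. What part of the *C3* of cluster 0 is free RNA was not tested.

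In epithelium *C3* was called higher in W in clusters 1 to 5 and 11, although cluster 2 missed the minimum count when cells of an earlier doublet call were left out. Cluster 9 had 7.48 CPM in UW and 7.11 CPM in W (log2 -0.07, above 0 under the composition factors), cluster 8 stood at 3.52 and 5.91 CPM (log2 0.75), and both stayed uncalled. Cluster 11 rose from 2.31 to 5.42 CPM and cluster 3 from 1.53 to 4.47 CPM. In clusters 1, 2 and 4 to 7 the W levels were 0.786 to 1.49 CPM. Over the 10 epithelial clusters of W *C3* had 0.678% to 6.13% of its level in cluster 13. Other genes that were highest in cluster 13 had unequal percentages there: *Tyrobp* 0.0633% to 0.370%, *S100a8* 0.476% to 2.12%, and *S100a9*, which already stood at 151 CPM in cluster 7 of UW, 0.866% to 4.85%. What part of the epithelial *C3* of W is free RNA was not tested. In W the same 4 clusters as in UW had the highest epithelial levels of *C3*.

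*Cfb* was not detected in UW. A count of 0 in 367166822 UMIs allows up to 0.00817 CPM, the level of 3 UMIs. In W it had 212 UMIs, of which 43.9% were in cluster 0, 18.4% in cluster 10 and 13.7% in cluster 15. Its level in cluster 0 was 2.87 CPM (2.31 to 3.51), at least 27.2-fold higher than the level of 3 UMIs in the UW sum, and the counting interval of the ratio starts at 21.7. Cluster 10 had 4.69 CPM (3.33 to 6.41), at least 8.92-fold higher on the same floor, with an interval that starts at 6.92. The highest level in W was that of cluster 15, at 10.7 CPM (7.17 to 15.4), where no ratio was taken.

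*Cfb* was found in few cells. In cluster 0 of W 64 of 1719 cells (3.72%, 2.88 to 4.73) had a UMI, in cluster 10 27 of 632 cells (4.27%, 2.83 to 6.16) did, and in cluster 15 25 of 251 cells (9.96%, 6.55 to 14.4) did. Thinned to 5000 UMIs the first and the second shares were 1.46% and 2.10%, and thinned to 2000 UMIs the share of cluster 15 was 0.797% (0.0966 to 2.85). These thinned shares are at unlike depths, so that of cluster 15 cannot be ranked against the others. Epithelial cells of W had a *Cfb* UMI in 0.470% of 8507 cells at a median of 25553 UMIs. *Cfb* is also hard to count: 90.8% of the 90-base words in the last 500 bases of its transcripts occur in *Gm20547*, a gene on the same strand that overlaps it and is not in the table. Reads that fit both may have been left out, so its level may be too low.

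*C3* and *Cfb*, both needed for the alternative pathway, were found together to unequal degrees. In cluster 0 of W 1 of the 64 cells with *Cfb* also had *C3* (1.56%), where 3.90% of all cells had *C3*. In cluster 10 of W 9 of the 27 cells with *Cfb* also had *C3* (33.3%), where 7.12% of all cells did. In cluster 15 of W 21 of the 25 cells with *Cfb* also had *C3*, where 58.6% of all cells had *C3*. At 1 to 5 UMIs of *C3* or *Cfb* per cell in cluster 0, a cell with both could be missed.

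*Serping1* lay in the same clusters as the protease genes it restrains. Clusters 0 and 10 held 95.5% of its UMIs in UW and 91.8% in W. Its level was 1325 CPM in UW and 1242 CPM in W in cluster 0, and 1863 and 1995 CPM in cluster 10, with log2 ratios of -0.09 and 0.10. The sign in cluster 0 flipped to 0.05 and 0.08 under the composition factors, so no direction is given. Nearly every cell of clusters 0 and 10 had a UMI, 99.7% of the cells in UW.

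In epithelial clusters *Serping1* stood at 5.11 to 25.9 CPM in UW and 13.4 to 19.7 CPM in W, and it was called higher in clusters 1 to 7 and 11. It was not called in cluster 8, from 17.3 to 16.5 CPM (log2 -0.08), or in cluster 9, from 25.9 to 19.7 CPM (log2 -0.39). Of the 222 UW UMIs of cluster 8, 61.7% were in 10 cells. The share of cluster 8 cells with a *Serping1* UMI went from 17.2% in UW to 42.0% in W, at median depths of 24704 and 35499 UMIs. Thinned to 5000 UMIs, these shares were 5.10% (3.36 to 7.38) and 8.76% (7.29 to 10.4). The call in cluster 7 was lost under the composition factors, where the log2 ratio went from 1.32 to 0.95 and 0.92. Those in clusters 5 and 11 were lost when each cell had the same weight, from 1.08 to 0.93 and from 1.15 to 0.74. The epithelial levels of *Serping1* were a median of 0.368% of its highest cluster in UW and 0.834% in W. The percentages of stromal markers also rose: *Lum* from 0.461% to 1.04%, *Dcn* from 0.381% to 0.702%, *Col1a1* from 0.352% to 0.544% and *Col1a2* from 0.362% to 0.540%. *C1s1* was also called higher in clusters 1 to 7 and 11, with cluster 7 lost under the composition factors (log2 1.34 to 0.96 and 0.93). Its percentage went from 0.599% to 1.34%. *C1ra*, called higher in cluster 1, went from 0.498% to 1.07%. The percentages of the 3 members were not always those of the markers. In UW *Serping1* reached 1.39% and *C1s1* 1.19% in cluster 9, above the 0.801% that *Lum*, *Dcn*, *Col1a1*, *Col1a2* and *Kera* reached at most in an epithelial cluster. In W *C1s1*, at 1.17% to 1.59%, overlapped *Lum* and lay above the other 4 markers. In CPM the epithelial median went from 6.85 to 16.6 for *Serping1*, from 35.6 to 55.6 for *Lum* and from 168 to 202 for *Dcn*. It went from 31.9 to 32.5 for *Col1a2*, from 35.4 to 34.5 for *Col1a1* and from 22.1 to 14.8 for *Kera*. What part of the 3 members' epithelial UMIs is free stromal RNA was not tested.

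**Figure D2:**
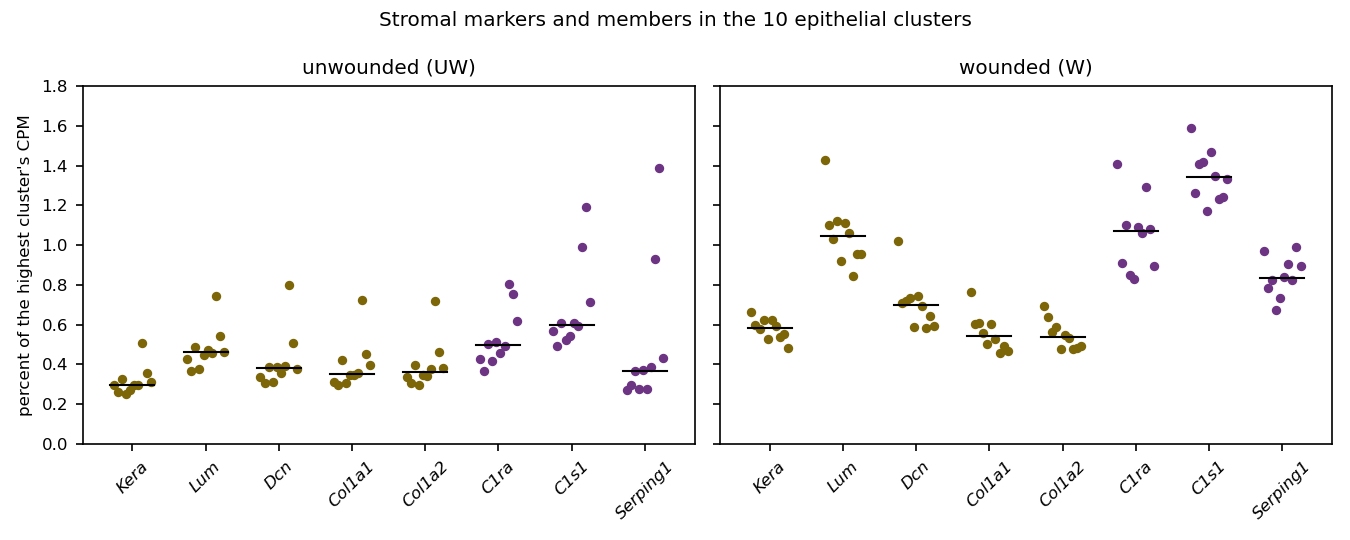
Level of each gene in the 10 epithelial clusters as a percentage of its level in its highest cluster, for UW and W. The stromal markers and *Serping1*, *C1s1* and *C1ra* lie at 1.59% or below in both libraries, and the median percentage of each of these genes is higher in W than in UW.

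*Cd55* was an epithelial transcript and was lower in W. Epithelial clusters held 99.0% of its UMIs in UW and 96.2% in W, and the library level went from 13.8 CPM (13.4 to 14.1) to 6.03 CPM (5.75 to 6.32). That library level also depends on how many cells of each cluster were captured. Clusters 6 and 7 made up 9.32% and 9.19% of UW cells but 5.25% and 4.25% of W cells, while cluster 5 went from 6.69% to 9.67%. In UW *Cd55* was highest in cluster 5, at 35.0 CPM (32.8 to 37.3), followed by superficial-like clusters 6 and 7 at 25.4 and 24.7 CPM. In W these stood at 12.2, 13.4 and 20.8 CPM.

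The log2 ratio of *Cd55* was below 0 in each of the 12 clusters, also under both composition factors. It was called lower in clusters 5, 9, 10 and 11. In cluster 6 the ratio was -0.93, on 1105 and 199 UMIs, just short of the limit. Both composition factors lowered that ratio by 0.16, which takes it past the limit. In cluster 5 the ratio was -1.51, a 2.86-fold fall (2.55 to 3.21), and in cluster 9 it was -1.65, from 6.57 to 2.09 CPM. The call in cluster 10 rests on 17 and 10 UMIs and was lost under a stricter cell filter, where the ratio went from -1.31 to -0.77. That in cluster 11, at -1.01, was just past the limit. It was lost without cells of an earlier doublet call (-0.94) and with equal weight per cell (-0.88).

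The share of cluster 5 cells with a *Cd55* UMI fell from 47.7% in UW (44.7 to 50.7) to 23.5% in W (21.1 to 26.0), at median depths of 24009 and 28144 UMIs, and 15.2% and 5.37% after thinning to 5000 UMIs. Cluster 0 had 1.31% and 0.873% of cells at median depths of 11853 and 17588 UMIs. T-like cluster 16 of W had 20.2 CPM from 21 UMIs, of which 13 were in 1 cell.

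*Cd59a* was transcribed in clusters 0 and 10 and in part of the epithelium. In UW, over all cells, it was highest in cluster 10, at 43.3 CPM (38.0 to 49.0), a level that fell under a stricter cell filter. Cluster 0 followed at 29.0 CPM (27.1 to 31.1) and epithelial cluster 9 at 26.7 CPM (23.1 to 30.6). In W clusters 10, 0 and 9 stood at 15.6, 13.5 and 14.3 CPM. *Cd59a* and *Cd55* differed in place among epithelial clusters: superficial-like clusters 6 and 7 had 0.528 and 0.579 CPM of *Cd59a* in UW, its lowest levels among the 12 clusters.

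*Cd59a* was called lower in clusters 0, 1, 3, 10 and 11. The falls were largest in epithelial cluster 3, from 10.7 to 3.01 CPM (log2 -1.83), and cluster 11, from 11.1 to 3.16 CPM (log2 -1.81). In cluster 0 the ratio of -1.10 became -0.96 and -0.93 under the composition factors, short of the 2 times asked for. In cluster 10 the ratio of -1.47 became -0.75 when cells with fewer than 1000 genes or over 5% mitochondrial UMIs were left out, and the UW level fell to 26.6 CPM. Of the UW UMIs, 44.1% were in 10 cells, and the cause of the change was not tested. Cluster 9 fell 1.86 times, from 26.7 to 14.3 CPM, and was not called.

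The gene did not fall in every epithelial cluster. In cluster 5 it went from 2.60 to 4.15 CPM (log2 0.67), while the thinned share of cells was 1.59% in UW and 1.62% in W. In cluster 6 it was called higher, from 0.528 to 1.34 CPM (log2 1.35), on 23 and 20 UMIs. The share of cells with a *Cd59a* UMI in cluster 9 was 28.6% in both libraries, but W cells were deeper, with a median of 24009 UMIs against 13944, and thinned to 5000 UMIs the shares were 12.7% and 8.53%. Cluster 13 of W had 1.13% of cells, on 8 UMIs, at a median of 2509.5 UMIs.

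**Figure D3:**
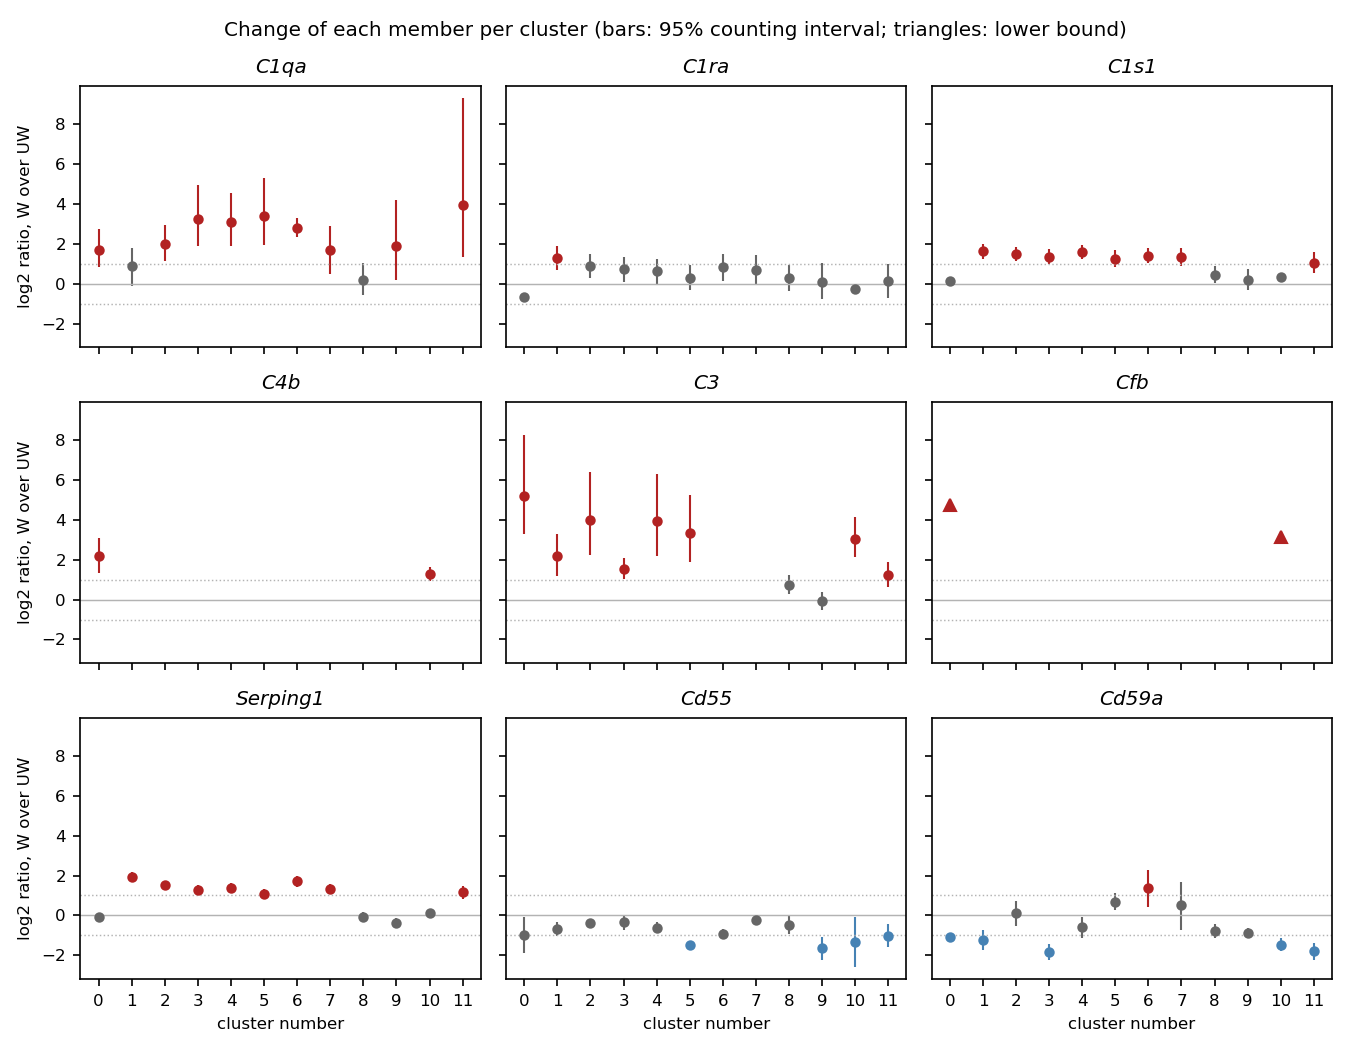
Log2 ratio of W to UW for each member in each of the 12 clusters with at least 50 cells per library, with 95% counting intervals, lower bounds as triangles for *Cfb*, and pairs under the minimum count left out. *C3* lies above 0 in every cluster drawn except 9, where the composition factors bring it above 0 too, and *Cd55* lies below 0 in all 12.

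A list of 57 complement genes, the 9 members among them, gave 33 other genes in the table. Of their 396 pairs with the 12 clusters, 171 had the minimum count, 67 were called higher in W (12.7% of all genes' pairs were) and 24 were called lower (9.80% were). Of the 67, 11 belonged to *C1qb*, 8 to *C1qc* and 6 each to *Masp1*, *Colec12* and *Cfp*. All those of *Masp1* and *Colec12* were in epithelial clusters. There the W medians of *C1qb*, *C1qc*, *Masp1* and *Colec12* were 0.0824%, 0.0796%, 0.790% and 0.900% of their highest clusters. These counts do not set the list apart from other genes. Genes named from this list reached 50 CPM in a cluster.

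Among soluble and recognition genes, *Clu* was highest in cluster 10, at 594 and 759 CPM, and was called higher in cluster 0 (13.2 to 35.4 CPM) and cluster 8 (60.2 to 150 CPM) under each scaling. The lectin pathway protease gene *Masp1* stood at 55.1 and 78.3 CPM in cluster 0 and at 43.8 and 83.4 CPM in cluster 10, where its log2 ratio of 0.93 passed the limit under the composition factors, at 1.04 and 1.05. *Colec12* stood at 143 and 134 CPM in cluster 0 and at 167 and 131 CPM in cluster 10. Cluster 0 and cluster 10 thus shared the classical and lectin protease genes, while *C4b* was higher in cluster 10 than in cluster 0 in both libraries.

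The other membrane regulators had 1 pair called higher and 12 called lower, of 43 pairs with the minimum count, beside 12.7% and 9.80% of all genes' pairs. *Susd4* was called lower in clusters 0, 3 and 10, in cluster 0 from 78.8 to 22.4 CPM (log2 -1.81). *Cr1l*, the rodent gene related to the C3b receptor, was called in none of the 12 clusters, with 106 and 89.9 CPM in cluster 0.

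Several receptor genes were highest in immune clusters of W. *C3ar1* reached 346 CPM and *C5ar1* 446 CPM in cluster 15, and *C5ar1* was at 392 CPM in cluster 13. *Itgb2* reached 249 CPM and *Cd93* 91.1 CPM in cluster 15. *Cfp* stood at 441 CPM in cluster 15, 201 CPM in cluster 14 and 105 CPM in cluster 13. Receptor transcripts were also found outside immune clusters: *Itgam* had 466 CPM in UW and 229 CPM in W in superficial-like cluster 7, beside 432 CPM in cluster 15 of W.

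Dissociation-stress genes were lower in W than in UW in several clusters. The 6 genes summed to 6490 CPM in UW and 1611 CPM in W in cluster 0, and to 5382 and 3175 CPM in cluster 10. In epithelial clusters 8, 9 and 11 they went from 8492 to 5120, from 9695 to 5298 and from 7180 to 4083 CPM, while in cluster 4 they went from 8960 to 9322 CPM. The 8 neutrophil genes in cluster 0 went from 4.15 to 99.1 CPM. Whether either difference bears on the members' levels was not tested.

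Genes with the most similar profile to each member were ranked by Pearson r of log2 levels over 28 sums of a cluster and a library, among 6223 genes. These are similarities over cell types of 2 libraries, and they carry no test. *C1qa* was closest to *C1qb* (0.997) and *C1qc* (0.993), then to *Ms4a7* (0.983). *C1ra* was closest to *Aebp1* (0.997), *Lum* (0.996) and *Aqp1* (0.996), and *C1s1* to *Mmp2*, *Dpep1* and *Pdgfrb* (each 0.997). *Serping1* was closest to *C1s1* (0.993), then to *Fstl1* and *Mmp2* (each 0.991).

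The other members had less close neighbours. *C3* was closest to *Rab20* (0.948), *Litaf* (0.933) and *Spi1* (0.913), and *C4b* had *Bpifb1* (0.929) and *Aspn* (0.919) among its closest. *Cfb* was closest to *Vcan* (0.896), *Mmp12* (0.894) and *Ccl8* (0.877). *Cd55* was closest to *Gramd3* (0.914), *2310035C23Rik* (0.895) and *Cited4* (0.877), and *Cd59a* to *Nfix* (0.937), *Bhlhe41* (0.936) and *Smad5* (0.914).

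In GENCODE M21 (GRCm38) *C1qa* (ENSMUSG00000036887) lies on chromosome 4 at 136895917-136898803, minus strand. *C1ra* (ENSMUSG00000055172) lies on chromosome 6 at 124512405-124523443, plus strand, and *C1s1* (ENSMUSG00000038521) at 124530345-124542359, minus strand, 6901 bases away, so the 2 genes end facing each other. *C4b* (ENSMUSG00000073418) lies on chromosome 17 at 34728380-34743882 and *Cfb* (ENSMUSG00000090231) at 34856374-34862518, both minus strand and 112491 bases apart. *C3* (ENSMUSG00000024164) lies on chromosome 17 at 57203970-57228136, minus strand.

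*Serping1* (ENSMUSG00000023224) lies on chromosome 2 at 84765387-84775444, minus strand, and *Cd59a* (ENSMUSG00000032679) on chromosome 2 at 104095801-104115354, plus strand. *Cd55* (ENSMUSG00000026399) lies on chromosome 1 at 130439027-130462744, minus strand. Of the table's 20198 genes, 19908 were found by symbol in this annotation.

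Some members have near copies. In the last 500 bases, where the 3′ reads fall, 20.2% of the 90-base words of *C4b* also occur in *C4a*, 11.2% of those of *C1ra* in *C1rb* and 2.68% of those of *C1s1* in *C1s2*. *C3*, *C1qa*, *Serping1*, *Cd55* and *Cd59a* shared 0 such words with another gene. In the table *C1rb* had 13 UMIs in each library, *C1s2* had 12 in UW and 17 in W, and *Cd59b* had 244 and 162. *C4a* and *Cd55b* were not analysed here.

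Promoters from 250 bases before to 50 bases after a RefSeq transcript start (GRCm38.p6) were available for 5 of the 9 members, and those of *C4b*, *Cfb*, *C1qa* and *Serping1* were not used here. They were read for 5 motifs on both strands. *C3* is shown because it rose from near 0 in cluster 0, and *C1ra* and *C1s1* because the neighbouring pair had opposite signs. *Cd59a* is shown because it was lower in clusters 0 and 10 and in part of the epithelium. Motif bases are in capitals.

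The *C3* promoter (chr17:57228087-57228386, minus strand) holds TTNCGNAA, the core that C/EBP proteins bind, at bases 206 to 213. This pattern was added after the sequence had been read, and 2.47% of 32851 promoters hold it.

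C3: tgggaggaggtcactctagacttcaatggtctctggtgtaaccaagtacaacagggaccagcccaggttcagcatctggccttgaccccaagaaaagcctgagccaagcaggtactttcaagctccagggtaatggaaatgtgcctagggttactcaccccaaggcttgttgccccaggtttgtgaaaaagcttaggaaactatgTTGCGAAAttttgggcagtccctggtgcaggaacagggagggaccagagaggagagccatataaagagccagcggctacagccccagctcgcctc

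The *C1ra* promoter (chr6:124512371-124512670, plus strand) holds TTCNNNGAA, the site of STAT proteins, at bases 283 to 291, which lie after the RefSeq transcript start. The GENCODE start of *C1ra*, at 124512405, lies inside this window and before the RefSeq start, so most of the window is within the GENCODE gene. That pattern is in 8.30% of the promoters.

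C1ra: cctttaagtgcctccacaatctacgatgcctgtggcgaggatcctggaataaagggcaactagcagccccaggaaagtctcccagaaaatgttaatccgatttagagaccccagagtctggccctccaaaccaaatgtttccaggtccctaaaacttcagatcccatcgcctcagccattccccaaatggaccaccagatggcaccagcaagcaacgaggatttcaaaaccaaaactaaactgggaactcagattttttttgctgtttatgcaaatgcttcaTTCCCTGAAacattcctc

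The *C1s1* promoter (chr6:124542272-124542571, minus strand) holds none of the 5 motifs, and neither does that of its other start.

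C1s1: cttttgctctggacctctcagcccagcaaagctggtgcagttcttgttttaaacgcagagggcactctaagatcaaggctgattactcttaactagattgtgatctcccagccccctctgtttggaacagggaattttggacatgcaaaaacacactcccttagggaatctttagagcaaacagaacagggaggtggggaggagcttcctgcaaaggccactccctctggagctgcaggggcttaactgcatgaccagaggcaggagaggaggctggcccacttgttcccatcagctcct

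The *Cd59a* promoter (chr2:104095551-104095850, plus strand) holds GAAA repeated after any 2 bases, a core that interferon regulatory factors bind, at bases 64 to 73. That pattern is in 3.44% of the promoters.

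Cd59a: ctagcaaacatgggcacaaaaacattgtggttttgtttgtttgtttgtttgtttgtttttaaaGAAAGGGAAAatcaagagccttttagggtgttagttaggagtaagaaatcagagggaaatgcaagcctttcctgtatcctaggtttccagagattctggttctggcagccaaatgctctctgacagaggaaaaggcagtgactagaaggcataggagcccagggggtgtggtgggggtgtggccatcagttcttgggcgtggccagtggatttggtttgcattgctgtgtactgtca

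The *Cd55* promoter holds none of the 5 motifs. CCAAT and the kappa B motif, found in 37.4% and 4.51% of the promoters, were in none of the 6 promoters read. A motif in a promoter does not show that a protein binds it, and no binding was measured.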

How the data were processed

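Cell Ranger 3.1.0 was used by the authors for alignment and UMI counting, and Seurat for filtering and clustering. The deposited values used here are raw UMI counts and a deposited table that gives each cell its library, depth and cluster. By the labels, a cell was kept if its number of genes lay between 500 and 8000 and mitochondrial UMIs made up no more than 10%. A gene needed a count in 5 cells. The authors removed doublets before deposit, and the files hold fewer cells than the study describes. The labels name mm9 as the genome build, while the paper names an mm10 reference for alignment. The annotation used for positions is GENCODE M21.

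Counts were summed per cluster and library with numpy 2.4.6, pandas 2.3.3 and scipy 1.17.1 under Python 3.11.15. TMM factors came from edgeR 4.0.16 and size factors from DESeq2 1.42.0 under R 4.3.3. Ratio intervals are exact conditional binomial intervals. Thinning drew UMIs at random without replacement and left out cells below the target. The calling script was tested on simulated data, which covers counting error only and no difference between the 2 pools. The members, marker lists and pathway list were chosen with earlier results of these data known. Genes named are the members, pathway genes that reach 50 CPM in a cluster with at least 50 cells, the 3 genes most alike to each member, and near copies, with exceptions stated where they occur. Some results that this rule would name are not reported here.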

Additional observations from a re-analysis of the deposited data

Results flagged for a closer look

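*Cd59a* moved in opposite directions in 2 epithelial clusters. Its log2 ratio of W to UW was 1.35 in superficial-like cluster 6, from 0.528 to 1.34 CPM on 23 and 20 UMIs, and -1.83 in cluster 3, from 10.7 to 3.01 CPM on 350 and 68 UMIs. Each condition is 1 library, and the difference between the clusters was not tested.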

How the results depend on the processing

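Pairs of a member and a cluster called lower numbered 9 over the 12 clusters and 17 at a fold limit of 1.5 times, where the limit itself admits more. In cluster 0, 1 member was called lower, against 0 under TMM and 0 under size factors, 2 without cells of an earlier doublet call, 2 with equal weight per cell and 3 at a fold limit of 1.5 times. In cluster 10, 2 members were called lower, against 0 under the stricter cell filter. Beyond the fold limits and the factors, whose construction shifts every ratio, the cause was not tested. Pairs called higher stayed between 37 and 48 around 39 in every alternative run. Of 83 log2 ratios, the number that left their counting interval was 8 under TMM, 9 under size factors, 5 under the stricter filter, 3 without doublet-call cells and 14 with equal weight per cell. None did without barcodes found in both libraries, an alternative chosen after seeing the data. Thinning, which lowers shares of cells by construction, moved 188 of 216 shares at 5000 UMIs and 20 of 36 at 2000 outside their intervals. With no filter beyond 1 UMI in each library *Cfb* gives no ratio. No paired analysis was possible because each condition is 1 library, and no replicate could be left out. Depth limits members with few UMIs, such as *C4b* and *Cfb* in epithelium.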
